A study of Mus musculus with 39 samples.

Results

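RNA near the top of a sucrose gradient of mouse liver was compared between fractions 4-5 and the fractions directly beneath them, 6-7. The members were chosen by fraction number, with earlier results of these data known. They are 8 of the 39 libraries of the series, namely fractions 4, 5, 6 and 7 of gradient 1 and the same fractions of gradient 2. The study homogenized livers of wild-type female FVB mice without detergent, removed nuclei by centrifugation and spun the homogenate into a continuous sucrose gradient. RNA of each fraction was sequenced after depletion of ribosomal RNA, from the same input mass in every library. All 8 libraries share strain, sex, genotype, tissue and handling. They differ in fraction, counted from the top, and in gradient, each gradient being from a different mouse by the series record. Animal age was not given in the sources used here.

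In such a gradient, particles are sorted by how fast they move through sucrose, so free RNA and small ribonucleoproteins stay near the top, whereas ribosome subunits, polysomes, vesicles and organelles with bound polysomes travel further. Ribonuclease P is a ribonucleoprotein that trims the 5′ end of transfer RNA precursors, and Rpph1 is its RNA subunit. Messenger RNAs of secreted and membrane proteins are translated on the endoplasmic reticulum (ER), and those of cytosolic, mitochondrial and nuclear proteins mostly on free ribosomes. An expression value in TPM (a transcript count scaled to a fixed total per library) is a share of the RNA in its own fraction, so a gene that is lower in a fraction may be present there in the same amount beside more of another RNA.

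The top libraries were set apart by Rpph1. It made up 24.96%, 6.13%, 1.63% and 0.528% of all TPM in fractions 4, 5, 6 and 7 of gradient 1, and 13.4%, 6.62%, 1.92% and 0.921% in those of gradient 2. Rn45s, the ribosomal RNA precursor, went the other way, with 0.395%, 1.80%, 4.30% and 3.99% in gradient 1 and 0.152%, 1.21%, 2.56% and 5.42% in gradient 2. All small structured, nucleolar, nuclear and microRNA genes together took 28.6%, 8.42%, 3.37% and 1.46% of gradient 1 and 18.6%, 9.60%, 3.86% and 2.20% of gradient 2. Of these 4 fractions, fraction 4 thus had the largest share of small RNA and the smallest share of Rn45s in both gradients. Fraction 3 of gradient 2, outside the comparison, held 27.4% small RNA, of which Rpph1 22.1%, more than fraction 4 of the same gradient but less than that of gradient 1, and less Rn45s than either (0.0694%). Fractions named highest or lowest below are so among fractions 4 to 7. Correlations of log2(TPM + 1) between the 8 libraries ran from 0.886 to 0.963 across genes, which are not independent replicates. TPM carries no read depth, so the depth of these libraries is unknown.

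Of 13230 genes in both tables, 12299 with a mean of at least 1 TPM over the 8 libraries were tested. For each gradient, log2(TPM + 1) was averaged over fractions 4 and 5 and over fractions 6 and 7, and the zones were compared with limma over the 2 gradients (n = 2 per zone), with Benjamini-Hochberg adjustment over all genes. Changes of low genes are understated on this scale. At an adjusted p threshold of 0.05, 230 genes (1.87%) were higher and 514 (4.18%) lower in fractions 4-5, together 744 or 6.05%. These calls depend on letting the variance in limma follow the expression level. Without that trend, 0 genes were called higher and 0 lower, or 1680 and 3308 with the gradient as a block. The gradients come from different mice by the series record, and zones of the same gradient deviated together. With the gradient as a block, limma gave 1957 higher genes (15.9%) and 3739 lower genes (30.4%), together 46.3%. Those blocked calls included all 744. The smallest adjusted p of limma was 0.0403 without the block, just under the threshold, and 0.00227 with it. Of the 744 genes, 704 showed no overlap between the 4 libraries of fractions 4-5 and the 4 of fractions 6-7. Over all genes, 1124 (9.14%) lay above and 1840 (15%) below without overlap. In 84.5% of genes the 2 gradients differed in the same direction, with a Pearson's r of 0.708 between their differences across genes.

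Because Rpph1 alone took up to 24.96% of a library, the zones were also compared without it. Leaving Rpph1 out and rescaling every library raised the median log2 difference of all genes from -0.14 to 0.02, a shift of 0.16. The share of limma calls that were higher in fractions 4-5 moved from 30.9% to 60.8%, with 121 genes higher and 78 lower. With the block and without Rpph1, 2921 genes (23.8%) were higher and 2808 (22.8%) lower, 46.6% in all. Gene groups are therefore described below by their own median and by its distance from the median of all genes. That distance kept its sign under every scaling tried on a list except for actin and tubulin genes (-0.03, and 0.00 with small RNAs left out) and long noncoding RNAs (0.00, and -0.02 without Rpph1). The median itself also changed sign for plasma proteins, from 0.04 to -0.01 with Rn45s left out. Before rescaling, blocked call counts of a list stand beside 15.9% higher and 30.4% lower over all genes. Counts without the block stand beside 1.87% and 4.18%.

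**Figure D1:**
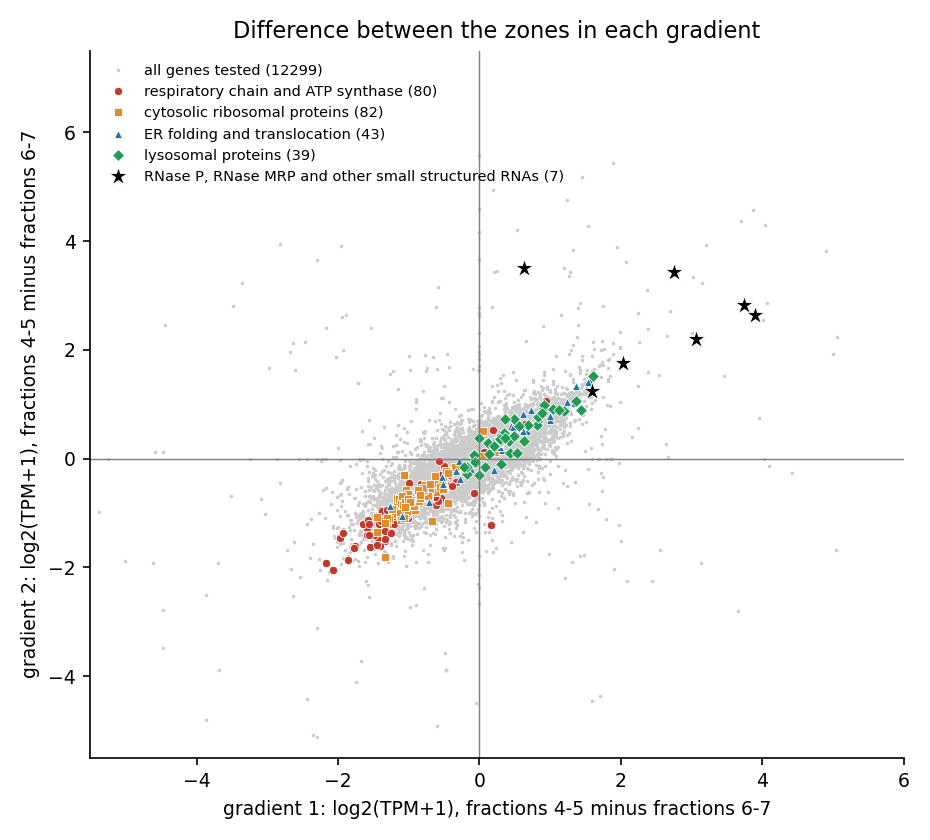
Log2(TPM + 1) in fractions 4-5 minus that in fractions 6-7 for each of the 12299 genes tested, with gradient 1 on the x axis and gradient 2 on the y axis. Respiratory chain and ribosomal protein genes lie mostly below 0 in both gradients, and ER, lysosomal and small structured RNA genes mostly above 0.

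Rpph1 and related structured RNAs gave some of the largest differences. Rpph1 (chromosome 14, 50807449-50807767, minus strand, GENCODE M21 on GRCm38) measured 249286, 61207, 16303 and 5276 TPM in fractions 4, 5, 6 and 7 of gradient 1 and 134178, 66041, 19218 and 9198 TPM in those of gradient 2. Every library of fractions 4-5 was above every library of fractions 6-7, and fraction 4 was the highest of the 4 in both gradients. Fraction 3 of gradient 2, which the comparison does not use, held 221191 TPM of Rpph1. The log2 difference was 3.28 ± 0.38 (SE, n = 2 gradients), with a limma adjusted p of 0.0411. Of the 7 tested members of the list of RNase P, RNase MRP and similar RNAs, 5 were called higher and 0 lower, and 6 and 0 with the block. At an unadjusted p under 0.05, limma gave 3823 genes overall. The list had a median log2 difference of 2.63, or 2.77 relative to all genes. Rmrp, the RNA of RNase MRP that acts on ribosomal RNA precursors, measured 22712, 12382, 6241 and 2693 TPM in fractions 4, 5, 6 and 7 of gradient 1 and 27586, 15615, 8335 and 4565 TPM in those of gradient 2. Its 2 zones did not overlap, with a difference of 1.89 ± 0.32 and a limma adjusted p of 0.0451. Terc, the template RNA of telomerase, ran from 96.9 to 225 TPM in fractions 4-5 and 7.88 to 47.6 TPM in fractions 6-7, a difference of 2.63 ± 0.25.

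Rprl3 and Rprl1 are RNase P RNA-like genes. Rprl3 (chromosome 8, 3803069-3803358, minus strand) measured 4178, 775, 210.3 and 68.8 TPM in fractions 4, 5, 6 and 7 of gradient 1 and 2369, 948, 359.9 and 158 TPM in those of gradient 2. It fell step by step from fraction 4 to fraction 7 in both gradients, and the zones did not overlap (difference 3.27 ± 0.35, limma adjusted p = 0.0403). Rprl1, chosen after its values were seen as the fifth called member, was listed at 0 in 3 of the 4 libraries of fractions 6-7 and measured 3.89 to 25.7 TPM in fractions 4-5. These genes resemble Rpph1 closely. A global alignment of the GENCODE transcripts matched 246 of 279 aligned bases of Rpph1 and Rprl3 (88.2%) and 242 of 290 of Rpph1 and Rprl1 (83.4%), so the TPM of Rprl3 and Rprl1 is uncertain, since reads of the far more abundant Rpph1 could have been assigned to them. The first 181 bases of both transcripts, shown because they align without a gap, differ at 11 positions, which are in capitals:
Rpph1: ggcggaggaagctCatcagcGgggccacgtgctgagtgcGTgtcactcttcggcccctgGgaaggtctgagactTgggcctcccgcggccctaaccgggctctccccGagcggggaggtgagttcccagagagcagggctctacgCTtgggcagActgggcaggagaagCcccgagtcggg
Rprl3: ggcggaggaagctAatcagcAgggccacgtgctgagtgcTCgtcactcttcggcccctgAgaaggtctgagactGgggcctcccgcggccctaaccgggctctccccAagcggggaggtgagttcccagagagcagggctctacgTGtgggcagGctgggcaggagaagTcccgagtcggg
Rpph1 also lies within Ccnb1ip1 on the same strand in the annotation, so reads of both cannot be told apart there.

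Small nucleolar and Cajal body RNAs guide modification of ribosomal and spliceosomal RNA. Of 70 tested, 12 were called higher and 2 lower (35 and 8 with the block), with a median log2 difference of 1.41, or 1.55 relative to all genes. The gradients differed, with medians of 0.90 in gradient 1 and 1.89 in gradient 2, and the median was 0.38 without the upper zone mean of gradient 2. Relative to each gene's mean over fractions 4 to 7, the list median in these fractions was -0.51, 0.75, -0.51 and -0.68 in gradient 1 and 1.26, 0.00, -0.80 and -1.02 in gradient 2, so that in gradient 1 fraction 5 alone stood out. Snora81 measured 20.3, 11.8, 0 and 0 TPM across gradient 1 and 50.9, 36.2, 3.96 and 0 TPM across gradient 2, all 4 top libraries above the others (difference 4.17 ± 0.60, limma adjusted p = 0.0416). Snord15a measured 7.92 to 47.1 TPM in fractions 4-5 and was listed at 0 in all 4 libraries of fractions 6-7. Both sit inside introns or exons of host genes, Eif4a2 and Rps3, and their values may hold host reads. Scarna2, a Cajal body RNA and the most abundant member, ran the other way and measured 1211, 1187, 2529 and 1712 TPM across gradient 1 and 1041, 979, 1374 and 2184 TPM across gradient 2. All top libraries were below the others, although limma's adjusted p was 0.0745 without and 0.00335 with the block. The 2 lower calls, Snord91a (-1.63 ± 0.23) and Scarna10 (-0.75 ± 0.14), overlap Tsr1 and Ncapd2, and Snord91a was chosen after its values were seen.

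Of the small nuclear RNAs listed by symbol, 4 were tested, namely Rnu6, Rnu11 and Rnu12 of the spliceosome and Rnu7 of histone mRNA processing. Without the block limma called 0 higher and 1 lower, and with it 3 and 1, the lower RNA being Rnu7 each time. Rnu6, the U6 RNA of the catalytic core, measured 1031, 958, 614 and 278 TPM in fractions 4, 5, 6 and 7 of gradient 1 and 1582, 1123, 853 and 406 TPM in those of gradient 2. Each top library exceeded each lower one, with a difference of 1.22 ± 0.08 and a limma adjusted p of 0.0539 without and 0.00242 with the block. Rnu11 and Rnu12, the U11 and U12 RNAs of the minor spliceosome, differed by 3.65 and 2.73, with blocked adjusted p values in limma of 0.00946 and 0.00242. In Rnu12 the zones overlapped because gradient 2 was higher throughout, at 1574, 322, 156 and 43.4 TPM against 204, 126, 27.1 and 33.7 TPM in gradient 1. Rnu7, the U7 RNA, was lower (-3.70 ± 0.67, limma adjusted p = 0.0467), but it lies inside Grcc10 on the same strand, which was lower as well.

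MicroRNA loci showed no common direction. Of 141 tested, 7 were higher and 9 lower (21 and 19 with the block). The blocked calls were 14.9% and 13.5% of the loci, against 15.9% and 30.4% of all genes. Without Rpph1, 4 loci were higher and 3 lower (28 and 21 with the block). The median was 0.19 over both gradients and 0 in each gradient alone, as many loci were listed at 0 in some libraries. TPM of a locus cannot tell the hairpin, the mature microRNA and a host transcript apart. Mir6516 was the most abundant locus, at 1971, 905, 382 and 260.4 TPM in fractions 4, 5, 6 and 7 of gradient 1 and 5829.6, 1472, 457 and 124 TPM in those of gradient 2. It was highest in fraction 4 and lowest in fraction 7 of both gradients (difference 2.85 ± 0.40, limma adjusted p = 0.0416), and it overlaps Snhg20. Mir1983 measured 27.99 and 6.35 TPM in fractions 4 and 5 of gradient 1 and 24.9 and 20.7 TPM in those of gradient 2, and was listed at 0 in fractions 6 and 7 of both (limma adjusted p = 0.0403). Mir192, a liver-rich microRNA, was listed at 0 in 3 of 4 top libraries and measured 8.73 to 42.7 TPM in fractions 6-7 (limma adjusted p = 0.0464). Mir568 and Mir6353, which overlap Zbtb20 and Pid1, were lower by limma as well, at -1.81 ± 0.33 and -3.98 ± 0.58.

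Mature sequences of these loci, from RefSeq on GRCm38.p6, are given to show which products the loci encode. They were found for 119 of the 141 loci. Bases 2 to 8, the seed, are in capitals:
mmu-miR-6516-5p: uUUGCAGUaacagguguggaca
mmu-miR-6516-3p: uCAUGUAUgauacugcaaacag
mmu-miR-1983: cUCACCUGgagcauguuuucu
mmu-miR-192-5p: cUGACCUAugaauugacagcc
mmu-miR-192-3p: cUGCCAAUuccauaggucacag
mmu-miR-568: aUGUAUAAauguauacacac
mmu-miR-6353: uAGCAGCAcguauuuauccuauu
The seed of miR-192-5p is shared with Mir215 and that of miR-6353 with Mir15a, and no other tested locus shares a seed with those shown. None of the 5 loci shares a seed with another of the 5.

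The Mir1983 hairpin (chr13:21896918-21897049, minus strand, GRCm38.p6) is shown because it holds the letters GUUCGA, then any 2 bases and C, the core of the B box, an internal promoter element of transfer RNA genes. The match on the hairpin strand, bases 92 to 100, is in capitals:
Mir1983: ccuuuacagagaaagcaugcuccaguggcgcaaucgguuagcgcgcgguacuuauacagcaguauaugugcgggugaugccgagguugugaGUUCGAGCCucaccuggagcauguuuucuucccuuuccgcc
These letters are in 2 of the 105 tested loci with a hairpin in the table (1.9%), Mir1983 and Mir5100, and in 5 of all 1005 hairpins (0.498%). A match of letters is a description and shows no function.

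Rn45s, the ribosomal RNA precursor, was the most abundant gene called lower near the top. It measured 3942, 18014, 42958 and 39819 TPM in fractions 4, 5, 6 and 7 of gradient 1 and 1521, 12111, 25580.0 and 54154 TPM in those of gradient 2. Fraction 4 held the least in both gradients, and no top library reached the level of a lower one (difference -2.71 ± 0.41, limma adjusted p = 0.0417). As the libraries had been depleted of ribosomal RNA, its level also depends on how well the depletion worked in each library, which was not tested. Whether its reads came from the precursor or from mature ribosomal RNA was not tested either.

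Among protein-coding genes with a mean of at least 20 TPM, many of the clearest increases towards the top were in mRNAs of membrane proteins. Pgrmc1, a heme-binding membrane protein, measured 1275, 1059, 387 and 332 TPM in fractions 4, 5, 6 and 7 of gradient 1 and 1823, 1314, 607 and 368 TPM in those of gradient 2. The lowest top library, fraction 5 of gradient 1, was still above the highest lower one, fraction 6 of gradient 2 (difference 1.70 ± 0.23, limma adjusted p = 0.0416). Cd164, a sialomucin of endosomes and the cell surface, differed by 1.61 ± 0.15, and Rnf128, a membrane-bound ubiquitin ligase, by 1.73 ± 0.16. Il13ra1, a receptor chain for interleukin 13, differed by 1.58 ± 0.26. Not all such genes encode membrane proteins. Ybx1, a cytosolic protein that packages mRNA, measured 816, 553, 299 and 166 TPM across gradient 1 and 850.1, 701, 279 and 156 TPM across gradient 2, again with no overlap (difference 1.73 ± 0.16, limma adjusted p = 0.0403). Rbm4, a splicing regulator, differed by 1.57 ± 0.18.

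**Figure D2:**
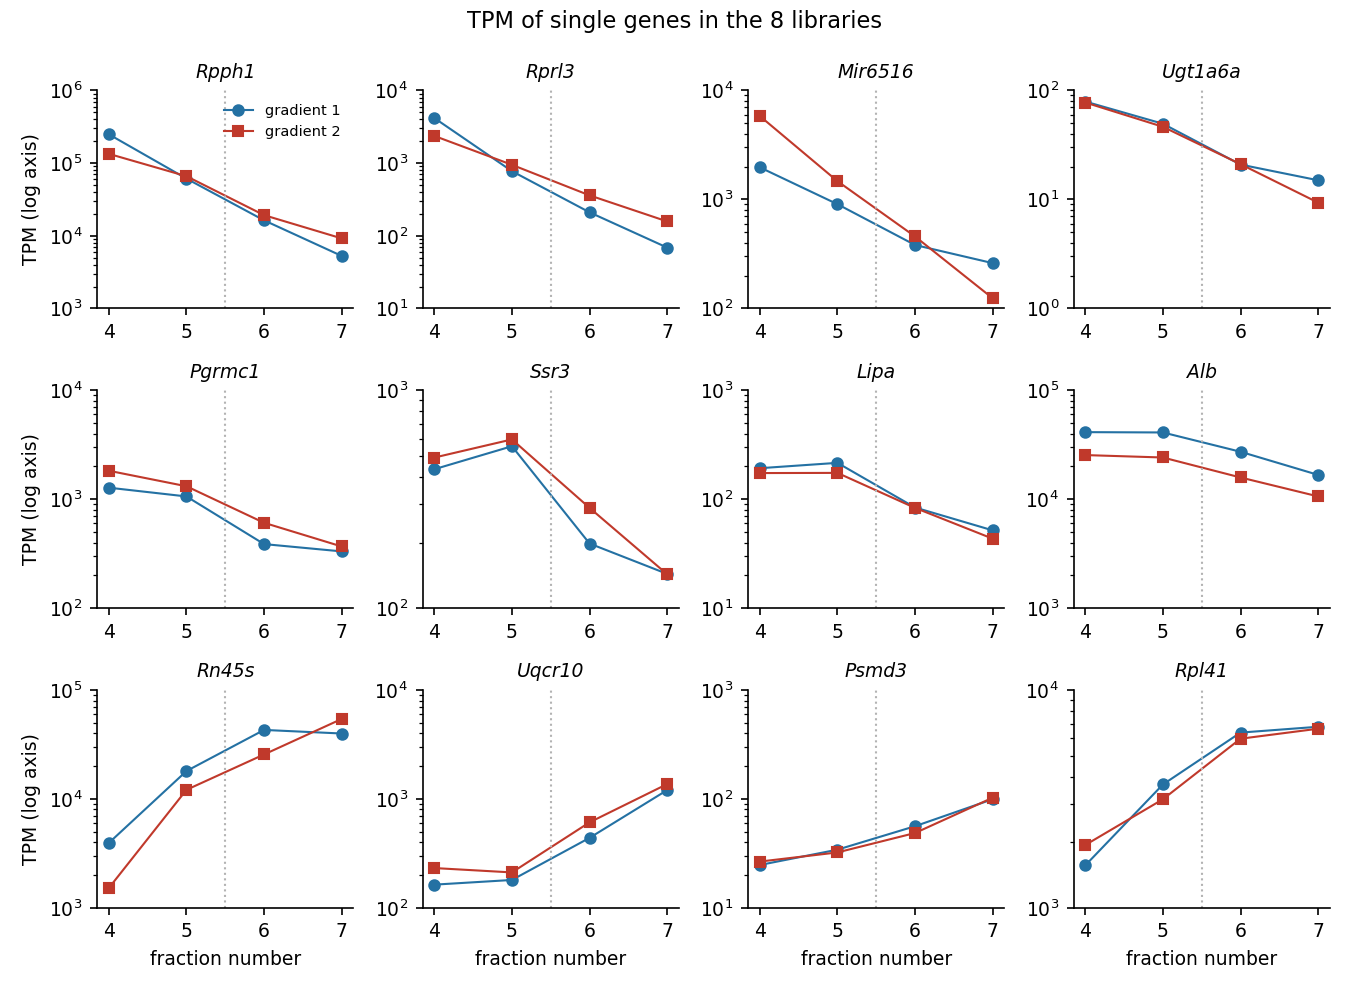
TPM on a log axis of 12 genes in fractions 4, 5, 6 and 7 of gradient 1 (circles) and gradient 2 (squares), with a dotted line between the zones. Rpph1, Rprl3, Mir6516, Ugt1a6a and Pgrmc1 fall with fraction number in both gradients, while Rn45s, Uqcr10, Psmd3 and Rpl41 are higher in both libraries of fractions 6-7 than in those of fractions 4-5.

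Genes for the machinery of the ER itself had the highest median log2 difference among the protein-coding lists, marker lists aside. Of 43 genes for ER folding and translocation, 7 higher and 1 lower were called, and 28 and 6 with the block. The list had a median log2 difference of 0.53, or 0.67 relative to all genes. Ssr3, a subunit of the translocon-associated protein complex, measured 434, 553, 198 and 144 TPM in fractions 4, 5, 6 and 7 of gradient 1 and 491, 595, 288 and 143 TPM in those of gradient 2. Fraction 5 was highest and fraction 7 lowest in both gradients, and the zones were separate (difference 1.47 ± 0.17, limma adjusted p = 0.0403). Spcs3, a subunit of signal peptidase, differed by 1.50 ± 0.25, and Calr, a lectin chaperone of the ER lumen, by 0.82 ± 0.14. P4hb, a protein disulfide isomerase and the most abundant gene of the list, measured 545, 643, 621 and 383 TPM across gradient 1 and 531, 649, 537 and 337 TPM across gradient 2, with overlapping zones and an adjusted p in limma of 0.18 without and 0.0239 with the block. The lower call was Ssr4, another subunit of the complex of Ssr3, at -0.76 ± 0.14, and was chosen after its values were seen.

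Genes for traffic between ER and Golgi were called in both directions. Of 40 tested, 5 higher and 1 lower were called (16 and 11 with the block). With the block, 40% were higher and 27.5% lower, against 15.9% and 30.4% of all genes, so the lower share was near that of all genes. The median log2 difference was 0.13, or 0.27 relative to all genes. The 5 higher genes were Kdelr2, the retrieval receptor for ER proteins (1.25 ± 0.14), the p24 cargo receptors Tmed5 (1.38 ± 0.19) and Tmed7 (1.25 ± 0.21), and the cargo receptors Surf4 (0.87 ± 0.15) and Mcfd2 (0.85 ± 0.14). All 5 encode membrane or luminal proteins. The lower gene was Cope, a subunit of the cytosolic COPI coat (-1.15 ± 0.16), with 29.8 to 41.2 TPM in fractions 4-5 and 54.3 to 96.3 TPM in fractions 6-7. Tmed7, Surf4 and Cope were chosen after their values were seen.

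Lysosomal protein genes were called in the upper direction alone. Of 39 tested, 6 higher and 0 lower were called (limma, without the block), and 19 and 0 with the block, with a median log2 difference of 0.37, or 0.51 relative to all genes. Lipa, the lysosomal acid lipase, measured 192, 215, 83.8 and 51.7 TPM in fractions 4, 5, 6 and 7 of gradient 1 and 174, 174, 83.2 and 43.4 TPM in those of gradient 2. Both top libraries of each gradient were above 2 times those below them, and the zones were separate (difference 1.56 ± 0.16, limma adjusted p = 0.0403). Lamp2, a lysosomal membrane glycoprotein, differed by 1.21 ± 0.16. Lamp1, the most abundant member, differed by only 0.37 ± 0.17, with overlapping zones and a limma adjusted p of 0.214 without and 0.0162 with the block.

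Of 121 solute carrier genes of the plasma membrane, 5 higher and 0 lower were called (40 and 9 with the block, 33.1% and 7.44% against 15.9% and 30.4% of all genes), with a median log2 difference of 0.24, or 0.38 relative to all genes. Slc19a2, a thiamine transporter, measured 127, 144, 54.9 and 41.3 TPM in fractions 4, 5, 6 and 7 of gradient 1 and 124, 117, 60.5 and 34.4 TPM in those of gradient 2. The lowest value of the upper zone was 117 TPM in gradient 2, and the highest of the lower zone 60.5 TPM (difference 1.43 ± 0.15, limma adjusted p = 0.0403). The other called genes were Slc2a2, the glucose transporter of hepatocytes (1.08 ± 0.17), Slc39a8, a zinc and manganese importer (1.02 ± 0.17), Slco1a1, an organic anion transporter (0.92 ± 0.16), and Slc40a1, the iron exporter ferroportin (0.80 ± 0.15), of which the last 3 were chosen after their values were seen. Other abundant genes passed only with the block. Slco1b2, an organic anion transporter, differed by 1.12 ± 0.09 and Slc38a4, an amino acid transporter, by 0.82 ± 0.08, with blocked adjusted p of 0.00255 and 0.00293 in limma. ABC transporters gave 1 higher and 0 lower of 35 (7 and 4 with the block) and a median log2 difference of 0.08, or 0.22 relative to all genes, and their call was Abcd3, a peroxisomal importer of fatty acids (0.85 ± 0.16). Extracellular matrix genes gave 1 higher and 0 lower of 20 (4 and 3 with the block) and a median log2 difference of 0.12, or 0.26 relative to all genes. Their call was Sparc, a matrix glycoprotein, which measured 34.2, 33.1, 14.2 and 11.6 TPM across gradient 1 and 36.6, 32.95, 15.2 and 10.1 TPM across gradient 2, more than 2-fold apart in each gradient (difference 1.37 ± 0.16, limma adjusted p = 0.0416).

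Plasma proteins, the main secretory products of hepatocytes, were spread over both directions. Of 77 tested, 3 higher and 0 lower were called (23 and 11 with the block), with a median log2 difference of 0.04, or 0.18 relative to all genes. With the block, 29.9% were higher and 14.3% lower, against 15.9% and 30.4% of all genes. The 3 genes called higher without the block included F9, coagulation factor IX (1.37 ± 0.14), and Cp, the ferroxidase ceruloplasmin (0.96 ± 0.15). Alb, the most abundant mRNA of the list, measured 41231, 40957, 27239 and 16704 TPM in fractions 4, 5, 6 and 7 of gradient 1 and 25392, 24125, 15818 and 10599 TPM in those of gradient 2. Within each gradient the top fractions held more, but fraction 6 of gradient 1 exceeded both top libraries of gradient 2, so the zones overlapped. Its difference of 0.94 had a limma adjusted p of 0.21 without and 0.0056 with the block. Major urinary proteins, carriers of pheromones that are near-identical in sequence and hence uncertain gene by gene, gave 0 higher and 0 lower of 21 (6 and 3 with the block) and a median log2 difference of 0.12, or 0.26 relative to all genes. Mup2 measured 8486, 3952, 1912 and 1953 TPM across gradient 1 and 15833, 10335, 5948 and 5750.4 TPM across gradient 2, higher at the top within each gradient (difference 1.36 ± 0.14, blocked adjusted p in limma 0.00321).

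Drug-metabolizing enzymes were read by family. Cytochromes P450, which are anchored in the ER membrane, gave 0 higher and 0 lower of 64 in limma without the block and 30 and 7 with it, and a median log2 difference of 0.28, or 0.42 relative to all genes. Cyp3a11 measured 613, 514, 297 and 346 TPM across gradient 1 and 1378, 970.5, 732 and 670.0 TPM across gradient 2, a blocked difference of 0.76 ± 0.08 (limma adjusted p = 0.00321), while gradient 2 was above gradient 1 in every fraction. Conjugating enzymes gave 3 higher and 1 lower of 49 (8 and 22 with the block) and a median log2 difference of -0.23, or -0.09 relative to all genes. The 3 higher genes, Ugt1a6a (1.89 ± 0.18), Ugt1a6b (1.74 ± 0.23) and Ugt3a2 (1.07 ± 0.15), encode UDP-glucuronosyltransferases of the ER. Ugt1a6a and Ugt1a6b share most of their sequence, and their sum measured 326, 228, 90.6 and 65.0 TPM in gradient 1 and 389, 271, 111 and 85.8 TPM in gradient 2, a log2 difference of 1.77. The lower gene, Gstp1, is a cytosolic glutathione transferase (-1.44 ± 0.16), as is Gstp3, which passed with the block (-0.78 ± 0.09, limma adjusted p = 0.00349). Ugt3a2 and Gstp1 were chosen after their values were seen.

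Metabolic lists differed as well. Sterol and fatty acid synthesis gave 1 higher and 0 lower of 33 (17 and 9 with the block), with a median log2 difference of 0.32, or 0.46 relative to all genes. The call was Elovl5, a fatty acid elongase of the ER (1.13 ± 0.20). Insig1, an ER membrane regulator of sterol synthesis, and Scd1, the stearoyl-CoA desaturase, passed only with the block, at 0.71 ± 0.09 and 0.73 ± 0.10. Scd1 measured 2069, 4619, 2392 and 1288 TPM across gradient 1 and 1267, 2865, 1822 and 823 TPM across gradient 2, so fraction 5 was the highest in both gradients and fraction 4 lay below fraction 6. Fatty acid oxidation and ketogenesis gave 0 higher and 6 lower of 30 (5 and 16 with the block), with a median log2 difference of -0.36, or -0.22 relative to all genes. Acadvl, a very long-chain acyl-CoA dehydrogenase of mitochondria, differed by -1.18 ± 0.19 and Acaa1a, a peroxisomal thiolase, by -0.98 ± 0.16. Urea cycle and amino acid catabolism gave 0 higher and 1 lower of 31 (2 and 16 with the block) and a median log2 difference of -0.33, or -0.19 relative to all genes, but only -0.03 relative to all genes after quantile normalization. Its call was Agxt, alanine-glyoxylate aminotransferase (-0.96 ± 0.16).

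Small lipid-binding and antioxidant proteins gave 1 higher and 4 lower of 27 (8 and 15 with the block), with a median log2 difference of -0.56, or -0.42 relative to all genes. Gpx1, a glutathione peroxidase, measured 2567, 2626, 4386 and 9072 TPM in fractions 4, 5, 6 and 7 of gradient 1 and 2631, 2464, 3841 and 7797 TPM in those of gradient 2. Fraction 7 was the highest in both gradients, and the zones did not overlap (difference -1.19 ± 0.21, limma adjusted p = 0.0466). The other lower genes were Prdx5 (-1.20 ± 0.20), Gpx4 (-1.15 ± 0.19) and the acyl-CoA-binding protein Dbi (-0.87 ± 0.15), and the higher one was the glutaredoxin Glrx (0.76 ± 0.14). Gpx4, Dbi and Glrx were chosen after their values were seen. Fabp1, the fatty acid-binding protein of liver, measured 3328, 2348, 4030.0 and 9192 TPM across gradient 1 and 3792, 2470.0, 4013 and 7170.2 TPM across gradient 2, with a blocked difference of -0.97 ± 0.12 (limma adjusted p = 0.00424). Ftl1, the ferritin light chain and the most abundant member, ran against most of the list at 24044, 19073, 10675 and 10180.0 TPM across gradient 1 and 32138, 22668, 11935 and 9024 TPM across gradient 2. Every top library was above every lower one, and limma's adjusted p was 0.0664 without and 0.00392 with the block.

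Without the block and before rescaling, respiratory chain genes had the most calls of any list, each of them lower near the top. With the block, cytosolic ribosomal protein genes and the 311 zinc finger genes had more by count. By share, 88.75% of respiratory chain and 93.9% of cytosolic ribosomal protein genes were lower with the block, against 30.4% of all genes. Zinc finger genes were 19.0% higher and 15.4% lower, against 15.9% and 30.4% of all genes. Of 80 genes of the respiratory chain and ATP synthase, 0 higher and 45 lower were called (3 and 71 with the block), with a median log2 difference of -1.07, or -0.93 relative to all genes. Uqcr10, a small subunit of complex III, measured 163, 180.2, 439 and 1204 TPM in fractions 4, 5, 6 and 7 of gradient 1 and 232, 211, 609 and 1367 TPM in those of gradient 2. Levels in fraction 7 were over 5 times those in fraction 4 in both gradients, and the zones were separate (difference -2.06 ± 0.21, limma adjusted p = 0.0403). Ndufv3, of complex I, differed by -2.04 ± 0.16, Cox8a, of complex IV, by -1.45 ± 0.15, and Uqcrh, of complex III, by -1.38 ± 0.20. Cox4i1, the most abundant member, measured 486, 754, 1208 and 1178 TPM across gradient 1 and 594, 710.0, 1136 and 1122 TPM across gradient 2 (difference -0.89 ± 0.16). Atp5b, the catalytic subunit of ATP synthase, differed by -1.09 ± 0.16.

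Mitochondrial ribosomal proteins gave 1 higher and 25 lower of 78 (2 and 62 with the block), with a median log2 difference of -0.78, or -0.64 relative to all genes. Mrpl52 measured 90.3, 142, 299.7 and 389.7 TPM in fractions 4, 5, 6 and 7 of gradient 1 and 109.8, 139, 272 and 415 TPM in those of gradient 2. It increased at each step from fraction 4 to 7 in both gradients (difference -1.51 ± 0.14, limma adjusted p = 0.0403). Mrpl54 differed by -1.75 ± 0.18 and Mrpl12 by -1.14 ± 0.17. The higher call was Mrpl50 (0.82 ± 0.14, 88.3 to 99.5 TPM in fractions 4-5 and 46.9 to 62.3 TPM in fractions 6-7), chosen after its values were seen. Of the genes outside this list, Romo1 differed by -1.80 ± 0.15, Fmc1, an assembly factor of ATP synthase, by -1.81 ± 0.18, Tmem256 by -1.83 ± 0.26 and Grcc10, which overlaps Rnu7, by -1.83 ± 0.24. Mitochondrial carriers, which have several membrane spans, were nearer to the other genes, with 0 higher and 1 lower of 40 (4 and 15 with the block) and a median log2 difference of -0.26, or -0.12 relative to all genes. Their call was Slc25a38, a glycine carrier (-0.90 ± 0.16), and the abundant Slc25a39 had a blocked difference of -0.71 ± 0.08.

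Of 82 cytosolic ribosomal protein genes, 0 higher and 16 lower were called (0 and 77 with the block), with a median log2 difference of -0.85, or -0.71 relative to all genes. Without the block the number of lower calls varied with the scaling, with 25 without Rn45s, 10 without small RNAs, 3 on the total without the 50 most abundant genes, 2 without Rpph1 and 2 after quantile normalization, where the distance from all genes shrank to -0.46. With the block it varied less, with 77 lower before rescaling, 74 without Rpph1, 75 without small RNAs and 63 after quantile normalization, and without Rpph1 the distance was -0.69. Rpl41 measured 1566, 3682, 6372 and 6776 TPM in fractions 4, 5, 6 and 7 of gradient 1 and 1942, 3150.2, 5972 and 6639 TPM in those of gradient 2. Fraction 4 was lowest in both gradients and no top library reached a lower one (difference -1.40 ± 0.20, limma adjusted p = 0.0416). Rps27l differed by -1.57 ± 0.18. Many ribosomal protein genes have processed pseudogenes that could share their reads, so single values are uncertain.

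Translation factors gave 2 higher and 7 lower of 60 (5 and 32 with the block), with a median log2 difference of -0.46, or -0.32 relative to all genes. Eef2, the elongation factor that moves the ribosome along, measured 1038, 2826, 6069 and 3762 TPM in fractions 4, 5, 6 and 7 of gradient 1 and 1130.4, 3444, 5019 and 3459 TPM in those of gradient 2. Fraction 6 was highest and fraction 4 lowest in both gradients (difference -1.28 ± 0.21, limma adjusted p = 0.0445). Eef1a1, the most abundant member, measured 7050.3, 12259, 18098 and 11193 TPM across gradient 1 and 11174, 15185, 19581 and 12224 TPM across gradient 2, with overlapping zones and no call by limma (adjusted p = 0.375, 0.0624 with the block). The higher genes were Eif3j2 (0.87 ± 0.15) and Eif1a (0.96 ± 0.15), chosen after their values were seen. Aminoacyl-tRNA synthetases gave 0 higher and 3 lower of 22 (1 and 13 with the block), with a median log2 difference of -0.47, or -0.33 relative to all genes. The called genes were Gars (-1.10 ± 0.19), Mars (-0.96 ± 0.18) and Aars (-0.92 ± 0.16), the synthetases for glycine, methionine and alanine, the last chosen after its values were seen.

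Proteasome genes gave 0 higher and 12 lower of 39 (0 and 30 with the block), with a median log2 difference of -0.64, or -0.50 relative to all genes. Psmd3, a subunit of the regulatory lid, measured 24.7, 34.2, 56.1 and 99.3 TPM in fractions 4, 5, 6 and 7 of gradient 1 and 26.6, 32.3, 48.6 and 102 TPM in those of gradient 2. It increased at each step in both gradients, and the zones were separate (difference -1.29 ± 0.15, limma adjusted p = 0.0403). Psmb5, the subunit with chymotrypsin-like activity, differed by -1.21 ± 0.17, the ubiquitin receptor Adrm1 by -1.05 ± 0.20 and the lid subunit Psmd13 by -0.88 ± 0.17. Shfm1, a very small lid subunit that was not on the list, differed by -1.95 ± 0.14. Other subunits moved little. Psma1, an outer ring subunit, measured 51.05, 36.4, 42.6 and 68.6 TPM across gradient 1 and 53.4, 34.7, 55.1 and 64.7 TPM across gradient 2 and Psmc5, an ATPase of the base, 56.6, 33.4, 53.5 and 72.8 TPM across gradient 1 and 57.4, 58.7, 60.9 and 74.98 TPM across gradient 2. In both genes the zones overlapped, and limma's adjusted p was 0.154 and 0.265 without and 0.0218 and 0.0431 with the block. Psmb1 lay between, with a blocked difference of -0.65 ± 0.08.

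Cytosolic chaperones gave 0 higher and 1 lower of 21 (1 and 9 with the block), with a median log2 difference of -0.23, or -0.09 relative to all genes. The call was Cct3, a subunit of the chaperonin that folds actin and tubulin (-0.94 ± 0.16). Hsp90ab1, the constitutive Hsp90, measured 491, 675, 1559 and 1092 TPM across gradient 1 and 525, 1009, 1196 and 899 TPM across gradient 2, with a blocked adjusted p of 0.0146 in limma. Hspa8, the constitutive Hsp70, was at 1524, 2220.0, 3689 and 2206 TPM across gradient 1 and 1332, 1807, 2329 and 1497 TPM across gradient 2, highest in fraction 6 of both gradients, with a blocked adjusted p of 0.0336. Glycolysis and gluconeogenesis gave 0 higher and 0 lower of 18 in limma without the block and 2 and 7 with it, and a median log2 difference of -0.24, or -0.10 relative to all genes. Actin and tubulin genes gave 0 higher and 1 lower of 29 (8 and 10 with the block) and a median log2 difference of -0.17, or -0.03 relative to all genes. Their call was Myl6, a myosin light chain (-1.07 ± 0.15).

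Histone mRNAs gave 0 higher and 7 lower of 72 (2 and 36 with the block), with a median log2 difference of -0.78, or -0.64 relative to all genes. Without Rpph1 limma called 0 of them lower, and 33 with the block. Hist1h4c, a histone H4 gene, measured 64.4, 60.2, 153 and 324 TPM in fractions 4, 5, 6 and 7 of gradient 1 and 42.3, 63.1, 87.7 and 293 TPM in those of gradient 2. Fraction 7 held more than 3 times the level of either top fraction in both gradients (difference -1.72 ± 0.22, limma adjusted p = 0.0416). Histone genes of a type are near-identical, so a single gene is uncertain. Chromatin and nuclear pore proteins gave 0 higher and 1 lower of 66 (1 and 28 with the block), with a median log2 difference of -0.36, or -0.22 relative to all genes. The call was Chd3, a chromatin remodeler, which measured 7.78, 19.7, 49.9 and 43.4 TPM across gradient 1 and 9.15, 22.3, 44.2 and 39.8 TPM across gradient 2 (difference -1.65 ± 0.18). Hepatocyte transcription factors and nuclear receptors gave 0 higher and 1 lower of 29 (3 and 12 with the block), with a median log2 difference of -0.30, or -0.16 relative to all genes. The call was Nr1h3, the oxysterol receptor LXR alpha (-1.27 ± 0.17). Rxra, its partner, measured 223, 614, 753 and 702 TPM across gradient 1 and 168, 480.3, 537 and 540.5 TPM across gradient 2, lowest in fraction 4 of both gradients and nearer to the lower zone in fraction 5 (blocked difference -0.95 ± 0.08, limma adjusted p = 0.00257). Hnf4a, a master regulator of hepatocytes, was likewise lowest in fraction 4, at 351, 794, 814 and 732 TPM across gradient 1 and 323, 854, 674 and 575 TPM across gradient 2 (limma adjusted p = 0.197, 0.0319 with the block).

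Zinc finger genes of the Zfp series gave 0 higher and 1 lower of 311 (59 and 48 with the block), with a median log2 difference of 0.11, or 0.25 relative to all genes, and their call was Zfp512b (-0.87 ± 0.16). Long noncoding and snoRNA host RNAs gave 0 higher and 1 lower of 23 (3 and 7 with the block), with a median log2 difference of -0.14, or 0.00 relative to all genes, and their call was the antisense RNA Epb41l4aos. Malat1, a nuclear RNA, measured 328, 342, 261 and 151 TPM across gradient 1 and 479.8, 724, 632 and 313 TPM across gradient 2, with overlapping zones (limma adjusted p = 0.438, 0.0122 with the block). The secretory mRNAs Apob and Fn1, whose profiles the study displays, did not separate the zones either. Apob, the structural protein of very low-density lipoprotein, measured 1056, 1811, 1604 and 822 TPM across gradient 1 and 1081, 1549, 1878 and 806 TPM across gradient 2, and fibronectin, Fn1, 226, 301, 327 and 196 TPM across gradient 1 and 190.2, 261, 242 and 174 TPM across gradient 2. Both were higher in fractions 5 and 6 than in fractions 4 and 7 of each gradient, and limma gave adjusted p of 0.525 and 0.792.

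**Figure D3:**
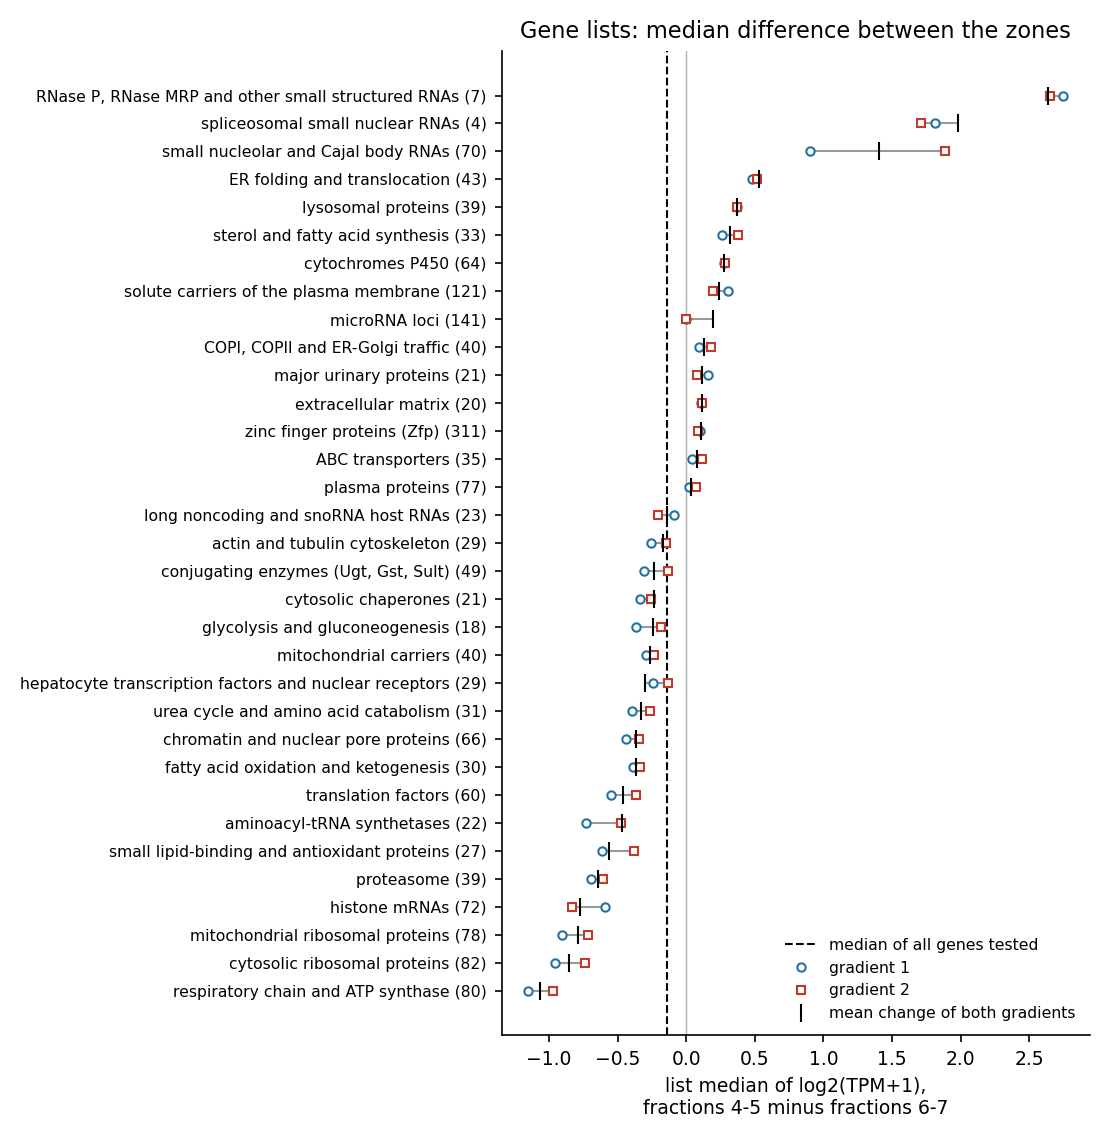
Median over the tested members of each of the 33 gene lists of log2(TPM + 1) in fractions 4-5 minus fractions 6-7, for gradient 1, gradient 2 and the mean of both, with the median of all genes as a dashed line at -0.14. Small structured RNAs lie at the top with 2.63 and respiratory chain genes at the bottom with -1.07.

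Several list medians were unstable when 1 of the 4 zone means was left out, which sets the zone of 1 gradient against those of 2. They ranged from -0.72 to 0.90 for major urinary proteins, -0.40 to 0.10 for conjugating enzymes, -0.11 to 0.11 for ABC transporters and -0.04 to 0.26 for extracellular matrix genes. Ranges that crossed 0 were also found for zinc finger genes (-0.02 to 0.21), plasma proteins (-0.02 to 0.11) and Kupffer cell markers (-0.09 to 0.22). The median of sterol and fatty acid synthesis genes ranged from 0.02 to 0.47 and that of genes for ER-Golgi traffic from 0.02 to 0.23. Other medians kept their sign but moved. Without the upper zone mean of gradient 2, the median was -0.45 for histones, -0.56 for the urea cycle, -0.70 for aminoacyl-tRNA synthetases, -0.36 for cytosolic chaperones, -0.15 for hepatocyte transcription factors, -0.08 for long noncoding RNAs and 0.71 for sinusoidal endothelial markers. Without the lower zone mean of gradient 1, it was -0.08 for hepatocyte transcription factors, -0.02 for long noncoding RNAs, -0.52 for the urea cycle, 0.13 for cytochromes P450, -0.24 for chromatin proteins, -0.10 for actin and tubulin, -0.17 for mitochondrial carriers and 0.79 for microRNA loci. Without the upper zone mean of gradient 1, it was -0.13 for the urea cycle, -0.33 for long noncoding RNAs, 0.16 for solute carriers, -0.36 for lipid-binding and antioxidant proteins and 0.11 for endothelial markers, and without the lower zone mean of gradient 2, -0.48 for glycolysis, -0.26 for long noncoding RNAs and 0.25 for endothelial markers. The median of microRNA loci was 0 without the upper or the lower zone mean of gradient 2. Respiratory chain genes stayed between -1.18 and -0.95, ER genes between 0.44 and 0.53 and lysosomal genes between 0.34 and 0.41.

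Without Rpph1 and after rescaling, the values of single genes moved up. Pgrmc1 then differed by 1.89, Ybx1 by 1.92, Ssr3 by 1.65, Lipa by 1.75, Slc19a2 by 1.62 and Rprl3 by 3.45, all still called by limma. Uqcr10 differed by -1.87, Mrpl52 by -1.33, Psmd3 by -1.11 and Rpl41 by -1.21, also called. Rn45s (-2.52), Eef2 (-1.09), Hist1h4c (-1.54) and Gpx1 (-1.01) no longer passed without the block, with limma adjusted p of 0.0523, 0.0523, 0.0514 and 0.056, but did with it, at 5.09e-04, 6.04e-04, 3.19e-04 and 5.18e-04. Without the block, far fewer list members were called lower without Rpph1, with 19 of the respiratory chain instead of 45, 5 mitochondrial ribosomal proteins instead of 25, 1 proteasome gene instead of 12, and in limma 0 translation factors, fatty acid oxidation genes and aminoacyl-tRNA synthetases instead of 7, 6 and 3. With the block, the lower calls went from 71 to 65, 62 to 56, 30 to 24, 32 to 29, 16 to 14 and 13 to 10 in these lists. The higher calls went from 7 to 4 for the ER, from 6 to 4 for lysosomal and from 5 to 3 for solute carrier genes without the block, but rose with it, from 28 to 32, 19 to 27 and 40 to 55. The calls Nr1h3, Agxt, Cct3, Myl6, Elovl5, Abcd3, Slc25a38, Zfp512b and Epb41l4aos, each the only call of its list, were lost without the block as well, as were Ssr4, Cope, Mrpl50, Rnu7, Snord91a, Scarna10, Glrx, Prdx5, Gpx4, Dbi, Tmed7, Surf4 and Mcfd2. Limma's adjusted p of these genes ran from 0.0503 for Abcd3 to 0.0854 for Ssr4 without the block and was at most 0.00358 with it. Other rescalings, without the block, took fewer calls or added some. With all small RNAs left out, 36 respiratory chain, 12 mitochondrial ribosomal protein and 7 proteasome genes were lower, and 14 ER, 9 lysosomal and 12 solute carrier genes higher. After quantile normalization the counts were 33, 12 and 7 lower and 7, 8 and 8 higher in the same order, and on the total without the 50 most abundant genes 28, 7 and 3 lower and 9, 6 and 7 higher. Limma gave 3492 genes at an unadjusted p under 0.05 without Rpph1. Relative to all genes, the list medians were then -0.90 for the respiratory chain, -0.69 for cytosolic ribosomal proteins, -0.48 for the proteasome, 0.70 for ER folding and translocation and 0.54 for lysosomal proteins.

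Markers of liver cell types were read as a check of the tissue. Hepatocyte markers summed to 54543, 60028, 50315 and 33795 TPM across gradient 1 and 39859, 41381, 35871 and 26754 TPM across gradient 2, led by Alb, with 0 higher and 0 lower of 8 in limma (1 and 4 with the block). Only 1 of the 8 had a difference above 0, and their median log2 difference was -0.23, or -0.09 relative to all genes. Kupffer cell markers summed to 252, 243, 267 and 227 TPM across gradient 1 and 214, 240.4, 251 and 199 TPM across gradient 2, led by Cd5l, with 0 higher and 0 lower of 10 (1 and 0 with the block). Sinusoidal endothelial markers, led by Clec4g, summed to 137, 143, 117 and 115 TPM across gradient 1 and 99.7, 113, 86.4 and 73.4 TPM across gradient 2, with 0 higher and 0 lower of 9 (3 and 1 with the block). Stellate cell markers, led by Rgs5, summed to 151, 179, 116 and 102 TPM across gradient 1 and 176, 188, 134 and 102 TPM across gradient 2, with 1 higher and 0 lower of 9 (4 and 0 with the block). The call was Rgs5, chosen after its values were seen. Dcn, a matrix proteoglycan of these cells, had a blocked difference of 0.69 ± 0.11. The summed endothelial and stellate levels were thus highest in fractions 4 and 5 of each gradient, and their part in the matrix and membrane gene results was not tested. Of the rarer types, cholangiocyte markers led by Sox9 summed to at most 8.85 TPM and lymphocyte markers led by Ptprc to at most 7.22 TPM in any library. Neutrophil markers, led by Ly6g, reached at most 36.7 TPM and erythroid markers, led by Hba-a1, at most 496 TPM. The defining genes Epcam and Cftr, Cd79a, Cd79b, Ms4a1 and Trbc2, Elane, Mpo and Ngp, and Slc4a1, Hbb-bs and Hbb-bt were not among the genes in both tables. The fractions of a gradient were all taken from the homogenate loaded onto it, so differences in marker sums between its fractions do not count cells. Between the gradients, fewer cells of a type and less RNA per cell cannot be told apart.

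Transcript length, which the choice of fractions did not use, varied along with the zones. Protein-coding genes called higher had a median annotated transcript of 3238 nt, those called lower 1316 nt and those not called 3026 nt. Coding parts had medians of 954, 789 and 1359 nt in the same order. Among blocked calls the contrast was smaller, with transcripts of 3228, 2406 and 3159 nt and coding parts of 1134, 1302 and 1410 nt. By length, the median log2 difference was -0.94 for the 166 genes of up to 600 nt, of which 119 were lower with the block, -0.73 for 550 genes of 600 to 1000 nt and -0.42 for 1093 genes of 1000 to 1500 nt. It was highest for 2028 genes of 3000 to 4000 nt and 2228 genes of 4000 to 6000 nt, at -0.02 each, and was -0.22 for 527 genes over 8000 nt. Without Rpph1 these medians were -0.79, -0.56, -0.26, 0.14, 0.14 and -0.06 in the same order. Among transcripts of like length some lists stood apart and others did not. At up to 1000 nt, respiratory chain genes had a median of -1.17 against -0.78 for all 716 protein-coding genes of that length, but 56 cytosolic ribosomal protein genes (-0.89), 43 histone genes (-0.88) and 11 conjugating enzyme genes (-0.78) lay close to it. At 1000 to 2000 nt, however, 20 cytosolic ribosomal protein genes (-0.82) and 18 histone genes (-0.68) lay well below the -0.29 of all 2440 genes, as did 11 genes each of fatty acid oxidation (-0.66) and of the urea cycle and amino acid catabolism (-0.66). At 2000 to 4000 nt, 22 ER genes had a median of 0.56 and 16 mitochondrial ribosomal protein genes one of -0.72, against -0.06 for all 4617. In that range, 16 genes of fatty acid oxidation (0.14) and 18 of the urea cycle and amino acid catabolism (0.10) lay above all genes, unlike the shorter ones. At 1000 to 2000 nt, 24 proteasome genes were at -0.65 and 38 cytochromes P450 at 0.21. The 5 ER genes of up to 1000 nt had a median of -0.76, near that of all genes of this length. The 20 major urinary protein genes of that length lay far above it at 0.13, although the median of their list was unstable between the zone means, as described above.

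Steps between neighbouring fractions were read from fraction 4 to fraction 7. In fraction 4 minus fraction 5, the median over genes was -0.40 in gradient 1 and -0.29 in gradient 2, and 12.5% and 7.93% of genes were over 1 log2 unit apart. Between fractions 5 and 6 the medians were 0.06 and 0.04, with 7.36% and 4.15% of genes that far apart. Between fractions 6 and 7 they were -0.09 and 0, with 4.00% and 4.38%. These shares include the shift of the whole median, and in gradient 1 the correlation across genes was lower between fractions 5 and 6 (0.947) than between fractions 4 and 5 (0.952). Each top fraction was also compared alone. Of the 230 higher genes, 218 were also called with fraction 4 alone and 217 with fraction 5 alone against fractions 6-7, with the gradient as a block. Of the 514 lower genes, these numbers were 514 and 499. Since the genes had been called on the same libraries, this overlap is no independent check. Over all genes, these blocked fits called 1081 higher and 4045 lower with fraction 4 alone, and 2550 and 2204 with fraction 5 alone. Without the block, fraction 5 alone gave 0 higher genes and 1 lower gene in limma, with 3441 genes at an unadjusted p under 0.05.

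Whether some calls depend on how reads were divided between similar genes was not tested. Tmem254b was called higher by limma at 3.57 ± 0.26 and Tmem254c lower at -2.36 ± 0.16. The sum of Tmem254a, Tmem254b and Tmem254c, at 162, 148, 119 and 157 TPM in gradient 1 and 145, 124, 103 and 138 TPM in gradient 2, differed by 0.17. Sap18b, a copy of the splicing-associated gene Sap18, was lower at -3.79 ± 0.22, whereas the sum of both genes differed by -0.84. In Tmem254 the genes thus moved apart while their sum hardly did, and for these families the sum is the safer value.

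Fractions outside the comparison were read for the same genes, without a test. In gradient 2, fraction 3 exceeded the mean of fractions 8 and 9 for 194 of the 230 higher genes (84.3%, median log2 difference 0.72), for 11 of the 514 lower genes (2.14%, median -1.81) and for 20.9% of all genes (median -0.65). For the blocked calls these shares were 57.3% of higher and 3.58% of lower genes. Further down, from fractions 8-9 to fractions 10-11, the higher genes still declined more often, with 159 of 230 above 0 in gradient 1 (69.1%, against 56.1% of all genes) and 153 in gradient 2 (66.5%, against 58.6%). The lower genes were above 0 in 186 of 514 cases (36.2%) in each gradient. Respiratory chain genes kept their direction in these contrasts. Fraction 3 was above fractions 8-9 for 3 of 80, and fractions 8-9 above fractions 10-11 for 10 of 80 in gradient 1. Lysosomal genes kept theirs in the same contrasts, with 32 of 39 for fraction 3 and 39 of 39 between fractions 8-9 and 10-11 in both gradients. ER genes were above 0 in 34 of 43, 38 of 43 and 37 of 43 cases in the same order. On the scale of each gene's mean, the lysosomal median in fraction 3 of gradient 2 was -0.13. It lay below fractions 4 (0.07), 5 (0.29) and 6 (-0.04). The ER median there was -0.01, below fractions 4 (0.21) and 5 (0.26). The median of all genes was low there too, at -0.46, against -0.22, 0.10 and 0.06 in fractions 4, 5 and 6. Measured from that median, the lysosomal and ER lists were higher in fraction 3 than in fractions 4 to 6. The respiratory chain median in fraction 3 of gradient 2 was -0.11, above fractions 4 (-0.50) and 5 (-0.53) but below fraction 6 (0.21). The decline of respiratory chain genes towards the top thus did not continue into fraction 3. In solute carrier genes, fraction 3 exceeded fractions 8-9 in 58 of 121 (median -0.02), against 20.9% of all genes (median -0.65). Further down, 116 and 111 of 121 were above 0 in gradients 1 and 2, against 56.1% and 58.6% of all genes.

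**Figure D4:**
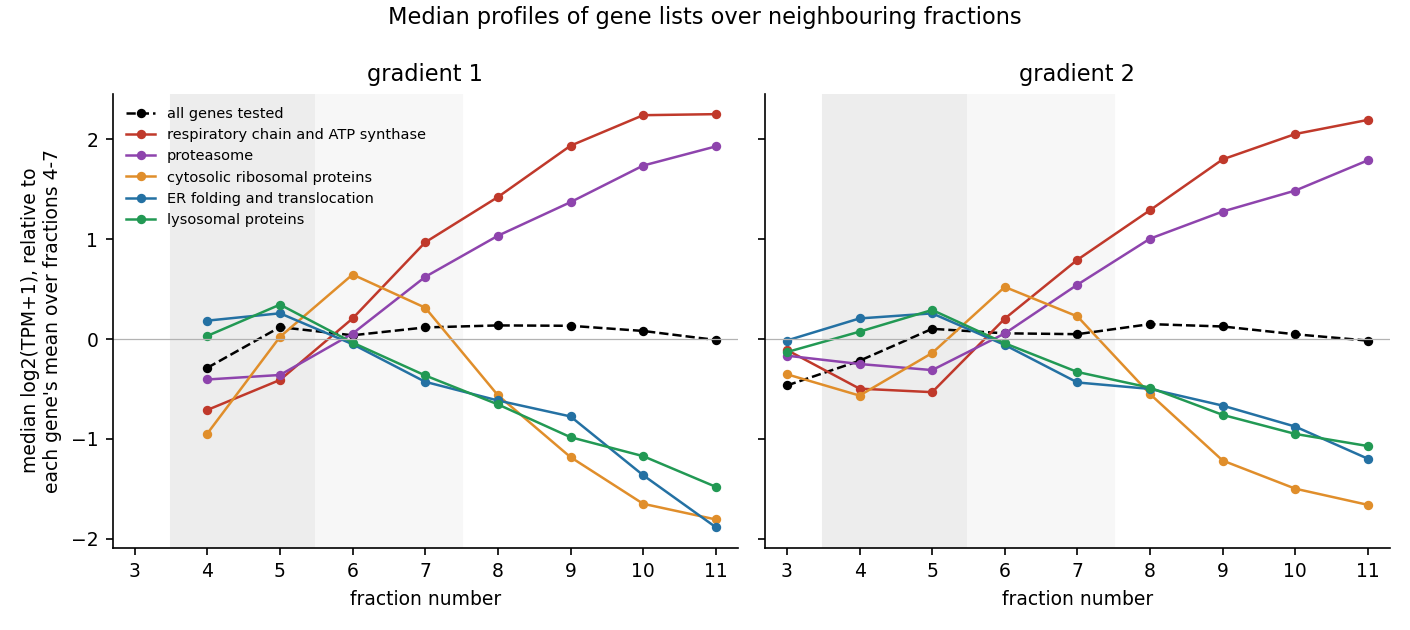
Median over list members of log2(TPM + 1) relative to each gene's mean over fractions 4 to 7, on the y axis, against fraction number on the x axis, from fraction 3 (gradient 2 alone) to fraction 11, in both gradients. Cytosolic ribosomal protein genes peak at fraction 6, with 0.65 in gradient 1 and 0.52 in gradient 2.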

How the data were processed

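The deposited tables hold TPM per gene symbol, which the authors made by kallisto pseudo-alignment to mm10 RefSeq transcripts after base calling with bcl2fastq 2.16.0.10. No read counts or depth were available, so limma rather than a count model was used. Genes in both tables with a mean of at least 1 TPM over the 8 libraries were kept. Values were log2(TPM + 1), averaged over the 2 fractions of a zone in each gradient, giving 4 zone means. These were fitted with lmFit and eBayes with trend, without a block, and p values were adjusted over 12299 genes. By the deposited record the 2 gradients come from 2 mice, so the zones of each share an animal, and their deviations from the zone means correlated at 0.523, so blocked values are given beside the others. In each comparison n is 2 gradients. Members and gene lists were chosen with earlier results of these data known.

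Named genes were Rpph1, the 8 largest changes in each direction among called genes of at least 10 TPM without overlap, the 10 largest in each direction among such protein-coding genes of at least 20 TPM, the 3 most abundant members and the 2 most changed called members of each list, the 5 most abundant genes, and 9 genes whose profiles the study shows. Not every gene of this rule is printed, and some items are not reported here. Others are said to be chosen after their values were seen. The 33 lists and 8 marker lists were written by hand from gene symbols. Gene positions, overlaps and lengths came from GENCODE M21 and microRNA sequences from RefSeq (GRCm38.p6). Tools were R 4.3.3, limma 3.58.1, Python 3.11.15, numpy 2.4.6, pandas 2.3.3, matplotlib 3.10.9 and Biopython 1.88. The other 31 libraries entered no test except the fits over shared fractions and, for fractions 3 and 8 of gradient 2, those with shifted fraction numbers. Alternatives varied scaling, pseudocount, filter, block, trend, fractions and gradient matching. Protein sequences, and with them protein length and N termini, were not analysed here.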

Additional observations from a re-analysis of the deposited data

How the results depend on the processing

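Counts of limma calls, given as higher and lower in fractions 4-5, were 230 and 514 with a median log2 difference of -0.14 over all genes. Rescaling moved them to 121 and 78 (median 0.016) without Rpph1, 412 and 236 (0.046) without small RNAs, 280 and 166 (0.034) on the total without the 50 most abundant genes, and 287 and 233 (-0.0069) after quantile normalization. A pseudocount of 0.1 gave 206 and 474, no filter 35 and 63, and a mean of at least 10 TPM 417 and 929. With the gradient as a replicate block the counts were 1957 and 3739, and without Rpph1 2921 and 2808 (median 0.016). Fits over all shared fractions gave 1250 and 2694, and 2148 and 4254 with the block. Fraction 4 alone gave 256 and 1078 (median -0.32), and fraction 5 alone 0 and 1 (0.036), with 3441 genes at an unadjusted p under 0.05 in limma. Against fraction 6 alone there were 2 and 2, against fraction 7 alone 686 and 1599. Shifting gradient 2 by 1 fraction gave 37 and 26 towards the top (median -0.295) and 1 and 1 towards the bottom (-0.088). Without trend limma gave 0 and 0, with 3786 genes at an unadjusted p under 0.05. Leaving out 1 zone mean gave 0 to 0 in each direction, with 2006 to 2851 genes at an unadjusted p under 0.05 in limma and medians from -0.222 to -0.057. Alternatives chosen after seeing the data were Rn45s left out (257 and 763, median -0.18) and blocked fits with quantile normalization (2916 and 3030, median -0.0069), without small RNAs (3362 and 2826, median 0.046), without trend (1680 and 3308), with fraction 4 (1081 and 4045, median -0.32) or 5 alone (2550 and 2204, median 0.036), and against fraction 6 (1134 and 2401) or 7 alone (2227 and 4013). Of 125 named genes, 117 kept their sign in each setting where they had a value (106 without small RNAs, 122 at the mean of at least 10 TPM, and 124 without Rpph1 or without Rn45s). Apob turned to -0.15 with fraction 4 alone, -0.38 against fraction 6 alone, both with and without the block, and -0.31 with the shift to the top. Fn1 turned to -0.13, -0.22 and -0.14 in the same settings, and ranged from -0.0684 to 0.231 when 1 zone mean was left out. The shift to the top also turned Malat1 (-0.0126), Scd1 (-0.20) and P4hb (-0.0727), and Malat1 ranged from -0.00279 to 1.16 when 1 zone mean was left out. The shift to the bottom turned Hspa8 (0.0312) and Eef1a1 (0.17), and fraction 5 alone turned Hnf4a (0.25), with and without the block. Of the 166 genes of the naming rule, 84 were called and 0 of these changed sign under those of the 32 alternatives that gave a value, against 41 of the 82 not called. Genes were called on these same values, and several alternatives, such as the block or leaving out the trend, keep the estimate itself and cannot change a sign. The counts of sign changes are therefore descriptions and no independent check. Among all 744 called genes 5 changed sign, Mir1954, Mir599, Scarb2, Snord14a and Spop, each with a shift of gradient 2, and these were chosen after their values were seen. The cause was not tested.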

Other observations

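Cytosolic ribosomal protein mRNAs did not follow a steady course along the gradient. Their median log2(TPM + 1) relative to each gene's mean over fractions 4 to 7 was -0.95, 0.02, 0.65, 0.31, -0.56 and -1.18 in fractions 4 to 9 of gradient 1, and -0.57, -0.14, 0.52, 0.23, -0.55 and -1.22 in those of gradient 2. It was highest in fraction 6 of both gradients and declined on both sides. In fraction 3 of gradient 2 it was -0.35, above fraction 4, and fraction 3 exceeded the mean of fractions 8-9 in 72 of 82 genes. The direction given for these genes in the report therefore holds for fractions 4-5 against 6-7 and not for the top of the gradient as a whole.

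With 2 gradients, limma's variance rests on few values, and the smallest adjusted p lay close to the threshold. Neighbouring fractions are not cleanly separated, and the same fraction number need not hold the same density in both gradients. TPM gives shares of each fraction and not amounts. Host genes, paralogs and pseudogenes share reads with several of the genes named. Which particle carried an RNA in these fractions, intact or broken, was not tested. Lists were made by symbol, and genes missing from either table were not analysed here.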
